A study of Mus musculus with 3 samples.

Results

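Mouse epiblast stem cells (EpiSCs) treated with IWR1 were compared directly with EpiSCs treated with Y27632, here Y27, as the labels shorten it. The comparison used 2 of the 3 RNA-seq libraries of the study, taken by their labels. EpiSCs of mouse strain 129 at passage 1 were routinely grown in serum on gelatin with both inhibitors. For the IWR1 library they had received 2 µM IWR1 for 12 h, and for the Y27 library 0.5 µM Y27 over the same time, a labelled dose that is low for this inhibitor and whose unit could not be checked. In the remaining library, NT, both inhibitors had been withdrawn overnight. NT entered neither the scaling nor the choice of genes compared and is given below as a level only. The labels do not say whether the treated cells had first been kept without inhibitor, nor how many cultures each library holds. Each group had 1 library, so no difference has a replicate check and no test between the treatments was possible. The comparison shows how the 2 libraries differ, and it cannot tell the treatments apart from other differences between them.

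EpiSCs are pluripotent cells derived from the epiblast of the embryo after implantation. They depend on Activin/Nodal and FGF signals, and many cultures also express genes of the primitive streak, where epiblast cells become mesoderm and endoderm in response to Wnt. IWR1 inhibits tankyrases, the enzymes that mark Axin for destruction. Stabilised Axin holds together the complex that degrades beta-catenin, so Wnt target genes receive less activation through TCF/LEF factors. Y27632 inhibits the kinases ROCK1 and ROCK2, which drive actomyosin contraction and the assembly of actin filaments. Actin monomers hold back the cofactors of serum response factor (SRF), so the state of the filaments feeds into transcription of actin and other cytoskeletal genes. The inhibitors therefore act on separate pathways, and a direct comparison asks in which genes the treated cells differed from each other.

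Levels are deposited expected counts (reads estimated per gene) scaled to the library's total as CPM. The totals were 5607725 in IWR1, 5459332 in Y27 and 5767550 in NT. Log2 differences are log2 of (CPM + 1) in IWR1 over (CPM + 1) in Y27, which understates the differences of low genes, and negative values are lower in IWR1. A gene was called past 2-fold where that difference was 1 or more in either direction. Folds are ratios of CPM without the added 1, and brackets after a fold hold an exact 95% interval, for counting error alone. A count of 0 allows up to 3 counts, or 0.535 CPM in IWR1 and 0.550 CPM in Y27. Folds against 0 are taken against that floor and leave out the counting error of the other library.

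Of 13010 genes that averaged 1 CPM or more in IWR1 and Y27, 168 (1.29%) were past 2-fold higher in IWR1 and 403 (3.1%) past 2-fold higher in Y27, together 4.39%. Wnt targets, streak and caudal genes led the Y27 side. The IWR1 side included Spp1, Nodal antagonists and some actin, ATF4 target and primed epiblast genes. The libraries were otherwise close. The median log2 difference over all genes was -0.03, 95% of genes lay between -1.09 and 0.76, and Pearson's r across genes was 0.976 on the log2 scale. Past 4-fold were 12 genes higher in IWR1 and 55 higher in Y27. With 5 CPM added in place of 1, the counts past 2-fold were 48 and 156, and from the deposited FPKM values they were 88 and 260. With every other scaling, filter or pseudocount tried, too, fewer genes were past 2-fold on the IWR1 side, between 23.5% and 34.1% of those past it.

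**Figure D1:**
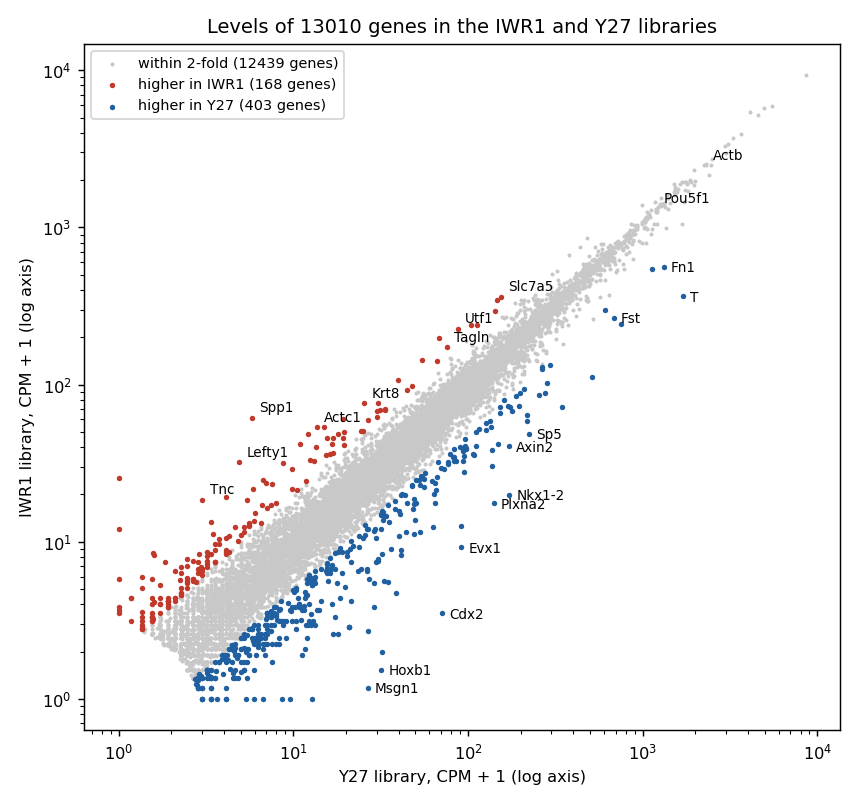
Levels of the 13010 genes compared, as CPM + 1 on log axes, with the Y27 library on the horizontal axis and the IWR1 library on the vertical axis. Each point is 1 gene, coloured red where past 2-fold higher in IWR1 (168 genes) and blue where past 2-fold higher in Y27 (403 genes). T, Cdx2 and Evx1 lie far below the diagonal, and Spp1 and Lefty1 lie above it.

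The 571 genes past 2-fold were described by lists of pathway members, cell type markers and gene families, which share some members. Each list is given as counts and a median over its members that averaged 1 CPM or more, to be read against the shares of all genes above and the median of -0.03. Counts of members higher or lower at any size are to be read against the 45.8% of all genes that were higher and the 54.2% that were lower in IWR1. The tables identify genes by Entrez number, among them Axin2 (12006), T (20997), Cdx2 (12591), Msgn1 (56184), Spp1 (20750), Lefty1 (13590), Actc1 (11464), Tagln (21345) and Krt8 (16691). Among the lists with at least 5 members compared, those that lay farthest to the Y27 side were caudal epiblast (median -1.99), Hox (-1.84), primitive streak and nascent mesoderm (-1.16) and Wnt target (-1.09). The Hox value rests on the 5 members that passed the filter on level, and with no such filter it was -0.45, behind the streak (-1.15) and Wnt target (-0.98) lists. The tRNA synthetase list (0.50) and the primed epiblast list (0.43) had the highest medians.

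**Figure D2:**
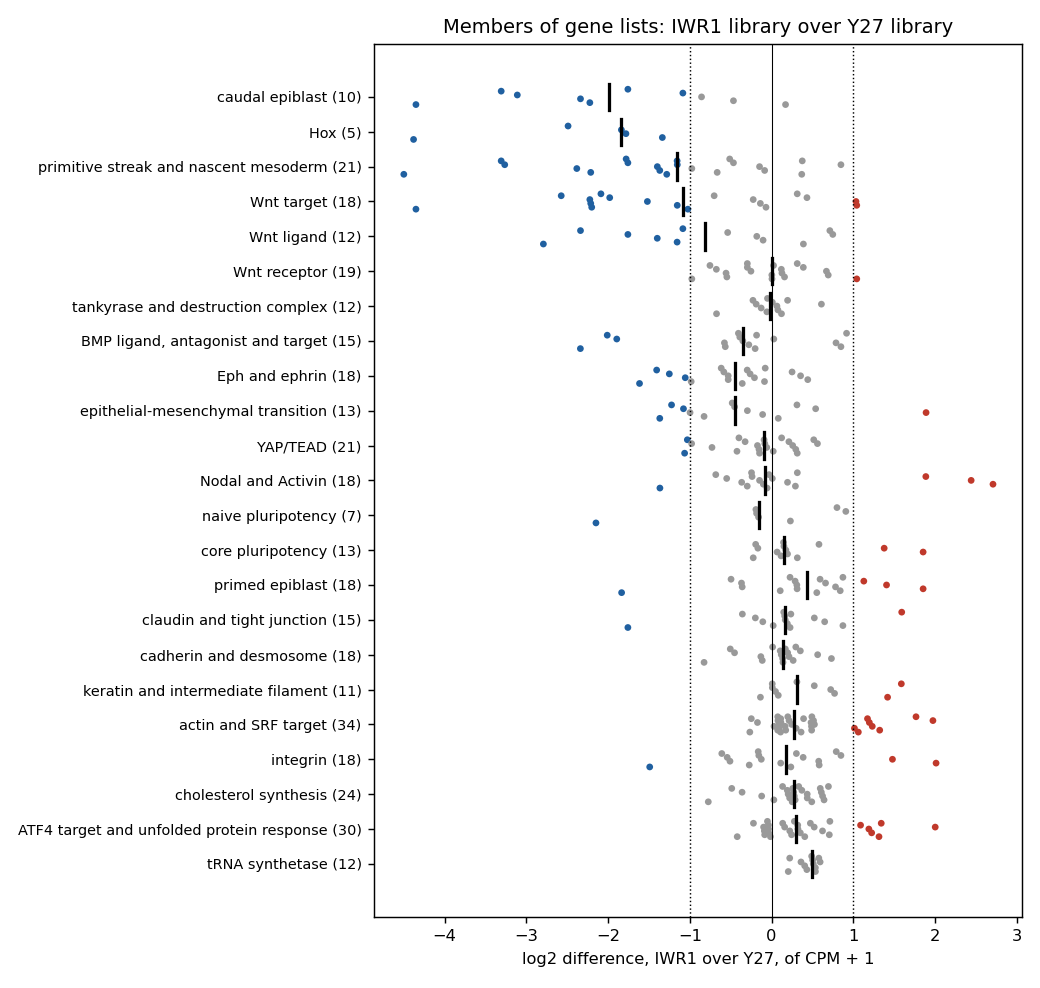
Log2 differences of CPM + 1, IWR1 over Y27, for members of 23 gene lists, with the number of members compared in brackets. Each point is 1 gene, red or blue where past 2-fold (dotted lines), and the black bar is the list's median. The upper 5 lists have most of the blue points, and the actin and ATF4 lists have red points and no blue ones.

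The Wnt target list was lower in IWR1. Of its 18 members compared, 10 were past 2-fold lower in IWR1 and 2 past 2-fold higher, against 3.1% and 1.29% of all genes. Axin2, the feedback scaffold that is the usual readout of the pathway, was at 39.4 CPM in IWR1, 171 in Y27 and 169 in NT, so that Y27 exceeded IWR1 by 4.33-fold (3.74 to 5.04). The Y27 and NT levels of Axin2 were close and the IWR1 level stood alone. Notum, which encodes a secreted enzyme that inactivates Wnt proteins, had 5 reads in IWR1 and 56 in Y27 (0.892 and 10.3 CPM, 11.5-fold, 4.65 to 36.8). The zinc-finger factor gene Sp5 was at 47.8 CPM in IWR1, 223 in Y27 and 275 in NT, and its relative Sp8 at 7.85, 40.3 and 22.5. Lef1, a TCF/LEF factor that is itself a target, was lower in IWR1 by a smaller margin, 31.6 against 92.3 CPM. The expected counts of Sp5, Sp8 and Lef1 are not whole, as happens where reads that match several sequences are shared out between them. In all 10 genes that were past 2-fold lower, the NT level lay nearer to Y27. The 2 members past 2-fold higher in IWR1 were low: Ascl2 at 5.17 against 2.01 CPM and Lgr5 at 2.24 against 0.573 CPM (13 against 3 reads, 3.91-fold, 1.16 to 23.1), and neither stayed past 2-fold in every setting tried.

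Promoters of Wnt targets are shown because T and Sp8 hold a match to the TCF/LEF motif while Cdx2, which had the largest difference of the list, holds none. Sequences are from RefSeq on the GRCm38.p6 build, another build than the mm8 of the deposited data, and give the 250 bases before the start site, 5′ to 3′ on the gene's strand. Capitals mark the motif, searched as CTTTGAT or CTTTGAA on both strands over 250 bases before to 50 after the start. The T promoter is chr17:8434173-8434422 on the plus strand, with the match beginning 235 bases before the start. The Sp8 promoter, 1 of 3 listed for the gene, is chr12:118846983-118847232 on the plus strand, with the match beginning 51 bases before the start. The Cdx2 promoter is chr5:147307250-147307499 on the minus strand.
T: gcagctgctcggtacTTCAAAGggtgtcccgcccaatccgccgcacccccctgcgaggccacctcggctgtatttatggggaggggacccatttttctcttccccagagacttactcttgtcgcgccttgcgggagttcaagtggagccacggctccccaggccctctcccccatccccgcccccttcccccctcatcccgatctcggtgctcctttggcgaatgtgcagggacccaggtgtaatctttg
Sp8: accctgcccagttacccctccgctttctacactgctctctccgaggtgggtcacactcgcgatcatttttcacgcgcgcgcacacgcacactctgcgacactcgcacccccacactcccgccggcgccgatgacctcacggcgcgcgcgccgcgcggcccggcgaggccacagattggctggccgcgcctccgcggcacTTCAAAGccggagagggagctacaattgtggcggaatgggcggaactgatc
Cdx2: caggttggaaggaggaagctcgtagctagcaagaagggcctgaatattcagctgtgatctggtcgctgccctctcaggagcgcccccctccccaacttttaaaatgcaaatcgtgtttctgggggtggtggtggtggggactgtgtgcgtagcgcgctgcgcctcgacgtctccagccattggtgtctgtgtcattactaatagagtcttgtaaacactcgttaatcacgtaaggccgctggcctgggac
Of the 13 Wnt target members that were compared and had a promoter in the table, 4 held the motif in at least 1 promoter, all of them among the 8 that were past 2-fold lower in IWR1. The motif stood in 8.65% of all 32851 promoters and in at least 1 promoter of 6.94% of the 10334 compared genes that had one. The list was made of known Wnt targets, so the share among its members is no independent result. A match is a description of the letters and not evidence of binding.

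Among the Wnt ligands, 6 of 12 compared were past 2-fold lower in IWR1 and none higher, with a median of -0.81, or -0.24 with no filter on level. Wnt6 had the largest difference, with 1.6 CPM in IWR1 and 17 in Y27 (10.6-fold, 5.36 to 23.9), and its NT level of 33.5 was above both. Wnt5b was at 11.4 in IWR1, 61.7 in Y27 and 68.8 in NT. Wnt3, the ligand that starts streak formation in the embryo, was at 51.2, 115 and 149.8 CPM, so its Y27 level lay between the other libraries. Wnt8a differed in its order: 38.2 CPM in IWR1 and 48.4 in NT lay below 82.1 in Y27. Wnt3a, past 2-fold lower in IWR1 but at the edge of detection, had no read in IWR1 and 13 reads in Y27. Its fold was 4.45 against the floor, with an interval that begins at 3.13. Wnt3a came within 2-fold under some of the other settings tried.

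The genes that encode the machinery of the pathway differed little. Of 12 tankyrase and destruction complex members none was past 2-fold, with a median of -0.02. Tnks and Tnks2, the targets of IWR1, were at 115 and 644 CPM in IWR1 and 135 and 666 in Y27. Axin1 was at 109 and 100.4 CPM and Ctnnb1, which encodes beta-catenin, at 907 and 901. The interval of the fold held 1 for Tnks2, Axin1 and Ctnnb1. Apc, the large scaffold of the complex, had the largest difference at 139 against 223 CPM (log2 -0.67). Of 19 members of the Wnt receptor list, which holds Frizzled, LRP, Ror and Ryk receptor genes and the R-spondin and LGR genes, only Lgr5 was past 2-fold. The R-spondin gene Rspo3, which encodes a Wnt enhancer, came close with 27.5 CPM in IWR1 and 55 in Y27, and Lgr4, an R-spondin receptor gene, lay the other way with 99.5 and 62.1. Levels of mRNA do not show the amount of Axin or beta-catenin protein.

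Primitive streak genes were lower in IWR1, with 12 of 21 members compared past 2-fold lower and none past 2-fold higher. T (Brachyury), the T-box factor of streak and nascent mesoderm, was at 364 CPM in IWR1, 1688 in Y27 and 1654 in NT, which is 4.64-fold (4.43 to 4.87) higher in Y27 than in IWR1. T thus remained well above the detection limit in IWR1, while Mixl1 and Msgn1 were at that limit. Mixl1, a homeobox gene of the streak, had no read in IWR1 and 47 in Y27. Its fold was 16.1 against the floor, with an interval that begins at 12.6. Msgn1, a factor of presomitic mesoderm, had 1 read in IWR1 and 140 in Y27, a ratio of 144 whose interval runs from 25.4 to 5720.1. Evx1, another homeobox gene, of the posterior part of the streak, stood at 8.2 CPM in IWR1 and 90.1 in Y27 (11-fold, 8.11 to 15.2). Evx1os, transcribed antisense to Evx1, stood at 2.85 and 27.8 CPM. The counts of both genes are whole, but whether strand was used in counting is not stated. How reads were assigned between these genes is therefore not known. In NT the level of each of these genes was nearer to Y27 than to IWR1.

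Other streak genes were lower in IWR1 by less. Eomes, a T-box factor needed for endoderm and mesoderm, was at 93.1 CPM in IWR1 and 208 in Y27 (2.24-fold, 2.02 to 2.49), from counts that are not whole. Snai1, a repressor of epithelial genes, was at 5.71 and 16.3 CPM and the homeobox gene Lhx1 at 4.46 and 12.3. Nodal (log2 -0.15), Gsc (-0.08) and Fgf8 (-0.47) stayed within 2-fold. Tbx6 and the Notch ligand gene Dll1, of presomitic mesoderm, were set apart by their Y27 level: Dll1 was at 2.32 CPM in IWR1, 4.68 in NT and 16.3 in Y27, and Tbx6 at 1.43, 2.6 and 7.33. Snai1, Lhx1 and Tbx6 came within 2-fold under 1 of the other settings tried. In bulk RNA, fewer streak-like cells and less streak RNA per cell cannot be told apart.

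Caudal epiblast genes were lower in IWR1, as were the few Hox genes compared. Of 10 caudal epiblast genes compared, 7 were past 2-fold lower in IWR1, with a median of -1.99, or -1.76 with no filter on level. Much of that list was already counted above. Cdx2 and Sp8 are also in the Wnt target list, Evx1 in the streak list, and Wnt5b and Wnt3a among the Wnt ligands. Cdx2, a caudal homeobox gene, was at 2.5 CPM (14 reads) in IWR1 and 70.3 (384 reads) in Y27, a 28.2-fold difference (16.6 to 52), with 47.3 in NT. Nkx1-2, which marks the caudal lateral epiblast, was at 18.9, 171 and 112 CPM in IWR1, Y27 and NT. Both genes were higher in Y27 than in NT, so the difference between the treated libraries was wider than that of IWR1 from NT. Of 29 Hox genes in the tables only 5 averaged 1 CPM or more, and all 5 were past 2-fold lower in IWR1. Hoxb1 had 3 reads in IWR1 and 169 in Y27 (57.9-fold, 19.5 to 283). Hoxa3 and Hoxb2 had 2 reads each in IWR1 and 20 and 21 in Y27, and Hoxb9 had 12 and 38. A member passed the level filter mainly through its Y27 level, and with no filter the median of the Hox genes was -0.45. Hoxa3, Hoxb2 and Hoxb9 came within 2-fold with 5 CPM added in place of 1.

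**Figure D3:**
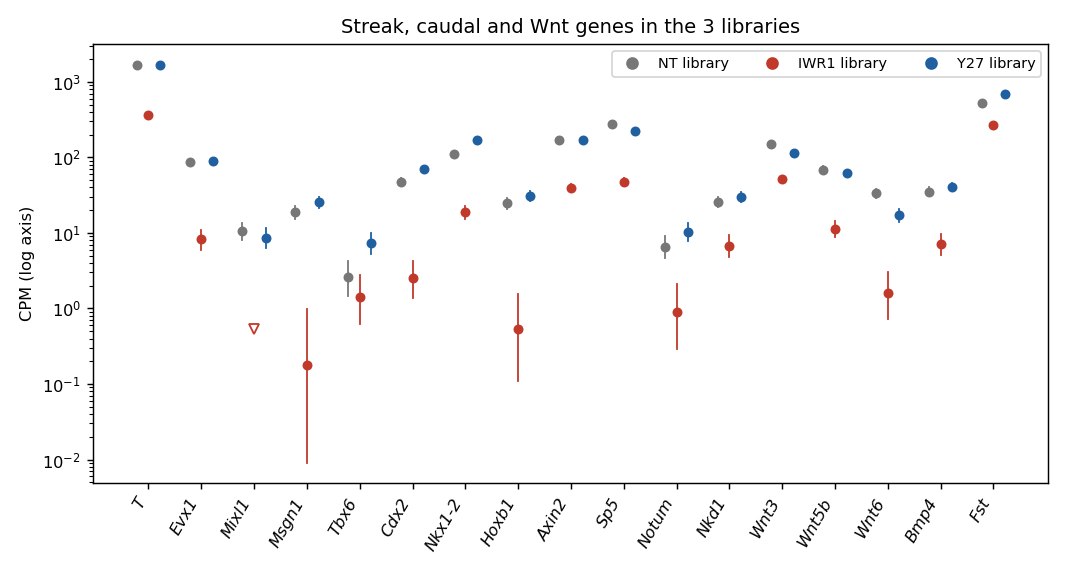
CPM on a log axis of streak, caudal, Wnt, Bmp4 and Fst genes in the NT (grey), IWR1 (red) and Y27 (blue) libraries, 1 library each, with exact Poisson 95% intervals as bars. The open triangle marks a gene with no read, drawn at the 3-count floor. The IWR1 point lies below both others for every gene shown, and its interval overlaps that of NT for Tbx6.

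Genes of other signalling pathways differed in part. In the BMP list 3 of 15 members compared were past 2-fold lower in IWR1: the ligand gene Bmp4 (7.22 CPM in IWR1, 40.6 in Y27, 35.3 in NT), the antagonist gene Nog (8.02, 35.4 and 43.2) and the target gene Msx1 (1.78, 9.34 and 10.9). The counts of Bmp4 are not whole, nor are those of Cer1, below. These 3 genes thus stood lower in IWR1 than in the other libraries, while the direct BMP targets Id1 and Id3 lay at -0.39 and -0.28. Of the 15 members 4 were higher in IWR1 at any size and 11 lower. The largest difference on the IWR1 side was that of Smad7 (0.92), and the antagonist gene Chrd lay at 0.79. Of the Nodal antagonists, Lefty1 was at 31.1 CPM in IWR1, 3.91 in Y27 and 24.4 in NT, and Lefty2 at 20.8, 4.88 and 15.2. Lefty1 and Lefty2 are near-identical neighbours and neither count is whole, so their split is uncertain. Their summed level was 51.9 CPM in IWR1 and 8.79 in Y27, a fold of 5.90 (4.34 to 8.19), with 39.5 in NT. The Y27 library was the low one for both Lefty genes. Cer1, which encodes a further secreted antagonist of Nodal, BMP and Wnt, was at 7.53 CPM in IWR1 and 0.57 in Y27 (42 against 3 reads, 13.2-fold, 4.36 to 68.7) and was not listed in NT. Fst, which encodes the Activin antagonist follistatin, lay the other way at 264 CPM in IWR1, 682 in Y27 and 525 in NT (2.58-fold, 2.43 to 2.75). Nodal, its coreceptor gene Tdgf1 and the Smad2, Smad3 and Smad4 genes stayed within 2-fold.

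The FGF list had 1 of 11 members past 2-fold, Fgf5, and the ERK feedback list had none of 13. The Notch list had 1 of 16, Dll1. Of 18 Eph receptor and ephrin genes, which guide cells by contact, 15 were lower in IWR1 at any size and 4 past 2-fold: Efna1, Ephb6, Epha4 and Epha7. Epha4 was at 33.5 CPM in IWR1, 35.4 in NT and 81.1 in Y27, so the Y27 library was the high one. Efna1, which encodes an ephrin ligand, was at 2.67 in IWR1, 10.3 in Y27 and 8.84 in NT, so here the IWR1 library was the low one. Efna1, Ephb6 and Epha7 came within 2-fold under at least 1 other setting. Of 40 semaphorin, plexin, netrin and Slit genes 4 were past 2-fold lower in IWR1, led by the semaphorin receptor gene Plxna2 at 16.6 against 139 CPM (8.38-fold, 6.75 to 10.5) and 81.1 in NT.

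Pluripotency genes checked the identity of the cells and were at high levels in both libraries. Pou5f1 (Oct4) was at 1316 CPM in IWR1, 1189 in Y27 and 1433 in NT, with counts that are not whole, and Nanog at 187, 214 and 240.1. The core pluripotency list summed to 4516 CPM in IWR1 and 4017 in Y27, and the naive list to 69 and 75. Of the 16 naive genes measured, 9 were under the level compared. Core genes were thus high and naive genes low in both libraries. Sox2 was higher in IWR1 by 1.5-fold (1.38 to 1.62), at 283 against 189 CPM.

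Of 18 primed epiblast genes 14 were higher in IWR1 at any size, with a median of 0.43, 3 past 2-fold higher and 1 past 2-fold lower. Foxd3, a forkhead factor of primed cells, was at 53 CPM in IWR1, 13.9 in Y27 and 7.8 in NT (3.8-fold over Y27, 2.95 to 4.96). Pou3f1 (Oct6) was at 143, 53.3 and 78.4, and Fgf5 at 68, 30.5 and 20.3, and the counts of Foxd3 and Fgf5 are not whole. For these genes the IWR1 library was the highest of all, and Y27 lay nearer to NT. Utf1, a chromatin-associated pluripotency factor of the core list, was also highest in IWR1, with 225 CPM against 86.1 in Y27 and 95.2 in NT. Otx2, a factor of the anterior epiblast, reached 1.59-fold (1.41 to 1.79), Dnmt3b, a DNA methyltransferase gene, 1.72-fold and the kinase gene Pim2 1.79-fold, all within 2-fold. The exception past the threshold was Sall3, a zinc-finger gene, at 40.8 CPM in IWR1, 148 in Y27 and 103 in NT. Among naive genes, Gbx2, which the posterior epiblast also expresses, was past 2-fold lower in IWR1 with 4 reads against 36.

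Actin and SRF target genes were higher in IWR1 than in Y27. Of 34 compared 31 were higher at any size and 8 past 2-fold, none past 2-fold lower, with a median of 0.27. The muscle-type actin genes differed most. Actc1 was at 52.6 CPM in IWR1, 12.6 in Y27 and 78.6 in NT (4.16-fold, 3.19 to 5.49), Acta1 at 17.5, 4.42 and 15, and Acta2 at 75.1, 29.4 and 85.1. Actin coding sequences are near-identical and these counts are not whole, so the split between them is uncertain. Their summed level was 145 CPM in IWR1, 46.5 in Y27 and 179 in NT, a fold of 3.12 (2.71 to 3.61). Tagln, the gene of transgelin, an actin-binding protein, was at 173 CPM in IWR1, 74.7 in Y27 and 239 in NT (2.31-fold, 2.06 to 2.6). Csrp1, a LIM-domain partner of filaments, was at 345, 146 and 389, and Cnn1, which encodes calponin, at 11.6, 4.58 and 12.1. In all 8 genes the Y27 library was the lowest and NT lay nearer to IWR1. The remaining genes past 2-fold were Tagln2 (log2 1.06) and Fhl2 (1.01), both just over the threshold. Cnn1 and Fhl2 came within 2-fold under at least 1 of the other settings tried, and Tagln2 was not followed over those settings.

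The abundant cytoplasmic actins differed less. Actg1 was at 5399 CPM in IWR1 and 4115 in Y27 (1.31-fold, 1.29 to 1.34). Actb was at 2484 CPM in IWR1 and 2293 in Y27 (1.08-fold, 1.06 to 1.11), and Srf itself at 152 and 140.5, with an interval of the fold that held 1. Per length, in the authors' deposited FPKM, Actb was at 1318 in IWR1 and 1217 in Y27, while Actc1 was at 38.2 and 9.18, Acta2 at 29.1 and 11.4 and Acta1 at 11.7 and 3.01. The muscle-type actins were thus minor actin mRNAs in both libraries. In 28 of the 34 genes NT was above both treated libraries, against 4331 of all 13010 genes. That position was not particular to this list. It was also that of 70 of 77 cytosolic ribosomal protein genes and 21 of 29 glycolysis and hypoxia genes. The ROCK pathway list had no member past 2-fold among 21 compared. Rock1 and Rock2, the targets of Y27632, were higher in Y27 but within 2-fold. Rock1 was at 59 CPM in IWR1, 96.5 in Y27 and 31.7 in NT, and Rock2 at 119, 164 and 85.3. Their size depended on the processing. Over the other settings tried, the log2 difference of Rock1 (-0.70) shrank to as little as -0.21. That of Rock2 (-0.46) shrank to as little as -0.04.

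Promoters of the muscle-type actins are shown because Actc1 and Acta1 hold the CArG box, the binding motif of SRF, close to the start, while Acta2, the next in size, holds no perfect match in this window. The Actc1 promoter is chr2:114052876-114053125 on the minus strand, with the box beginning 47 bases before the start. The Acta1 promoter is chr8:123894776-123895025 on the minus strand, with the box beginning 73 bases before the start. The Acta2 promoter is chr19:34255374-34255623 on the minus strand. Sequences are from RefSeq on GRCm38.p6, 250 bases before the start, 5′ to 3′ on the gene's strand, with the CArG box in capitals.
Actc1: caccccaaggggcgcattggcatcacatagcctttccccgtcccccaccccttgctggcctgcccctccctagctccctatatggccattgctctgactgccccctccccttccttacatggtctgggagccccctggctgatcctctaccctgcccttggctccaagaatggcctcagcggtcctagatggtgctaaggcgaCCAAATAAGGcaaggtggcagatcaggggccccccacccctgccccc
Acta1: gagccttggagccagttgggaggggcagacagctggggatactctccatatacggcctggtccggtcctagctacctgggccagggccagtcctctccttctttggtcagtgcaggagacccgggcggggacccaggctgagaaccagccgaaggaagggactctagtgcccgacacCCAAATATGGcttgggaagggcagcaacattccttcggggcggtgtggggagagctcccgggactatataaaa
Acta2: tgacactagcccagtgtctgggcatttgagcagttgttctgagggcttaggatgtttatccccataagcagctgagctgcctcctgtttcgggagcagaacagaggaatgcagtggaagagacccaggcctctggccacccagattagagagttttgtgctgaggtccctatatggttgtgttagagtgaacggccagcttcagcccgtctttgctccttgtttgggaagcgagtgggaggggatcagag
The box was searched by its standard form on both strands, over 250 bases before to 50 after the start. It stood in 10 of 31 list members that were compared and had a promoter, in 3 of the 7 of these that were past 2-fold, in 1.63% of all 32851 promoters and in 1.57% of the compared genes that had one. The list was made of known SRF targets, so the share among its members is no independent result.

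Most keratin, cadherin and tight junction genes were higher in IWR1 at any size, and few of them were past 2-fold. Krt8, the simple-epithelial keratin, was at 75.3 CPM in IWR1, 24.4 in Y27 and 117 in NT (3.09-fold, 2.54 to 3.78), and its partner Krt18 at 29.8, 17 and 45.8. Lmna, which encodes lamin A/C of the nuclear envelope, was at 47.3, 17 and 55.1 CPM. For all of them Y27 was lowest and NT highest. Krt8 and Lmna were the 2 of 11 keratin and intermediate filament genes past 2-fold. Of the 11, 10 were higher in IWR1 at any size, and the list's median was 0.31. Cdh1, which encodes E-cadherin, was 1.66-fold higher in IWR1 (1.57 to 1.77) at 502 against 302 CPM, and Cdh2, which encodes N-cadherin, lay the other way at 116 and 207. Of 18 cadherin and desmosome genes 13 were higher in IWR1 at any size and none was past 2-fold. Of 15 tight junction genes 11 were higher in IWR1 at any size. Past 2-fold, Cldn4 was higher in IWR1 (33 reads against 7) and Cldn19 had no read in IWR1 against 13 in Y27. Both came within 2-fold under at least 1 of the other settings tried.

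Integrins and matrix genes were split. Itgb3 was at 6.42 CPM in IWR1 and 0.837 in Y27 (36 against 5 reads) and Itgb4 at 9.45 and 2.75, while Itga1, a collagen receptor subunit, was at 4.64 and 14.8. The abundant laminin-receptor subunit Itga3 was 1.74-fold higher in IWR1. Of 40 collagen and matrix genes 3 were past 2-fold higher in IWR1 and 4 lower, with a median of 0.07. Spp1, which encodes the secreted protein osteopontin, had the largest log2 difference of any named gene on the IWR1 side. Spp1 was at 60.6 CPM in IWR1, 4.76 in Y27 and 14 in NT (12.7-fold, 8.54 to 19.8). Tnc, which encodes the matrix protein tenascin C, was at 17.5, 2.01 and 9.36. For both, NT lay between the treated libraries. Fn1, which encodes fibronectin, lay the other way and carried more reads than any other gene past 2-fold but T, at 562 CPM in IWR1, 1314 in Y27 and 1522 in NT (2.34-fold, 2.24 to 2.44). The YAP/TEAD list had 2 of 21 members past 2-fold, both lower in IWR1 and both just over the threshold: Amotl2, an angiomotin-family gene (297 against 608 CPM), and Crim1 (31.2 against 66.3). Both came within 2-fold under at least 1 other setting, as did Itga1, Itgb3 and Itgb4.

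**Figure D4:**
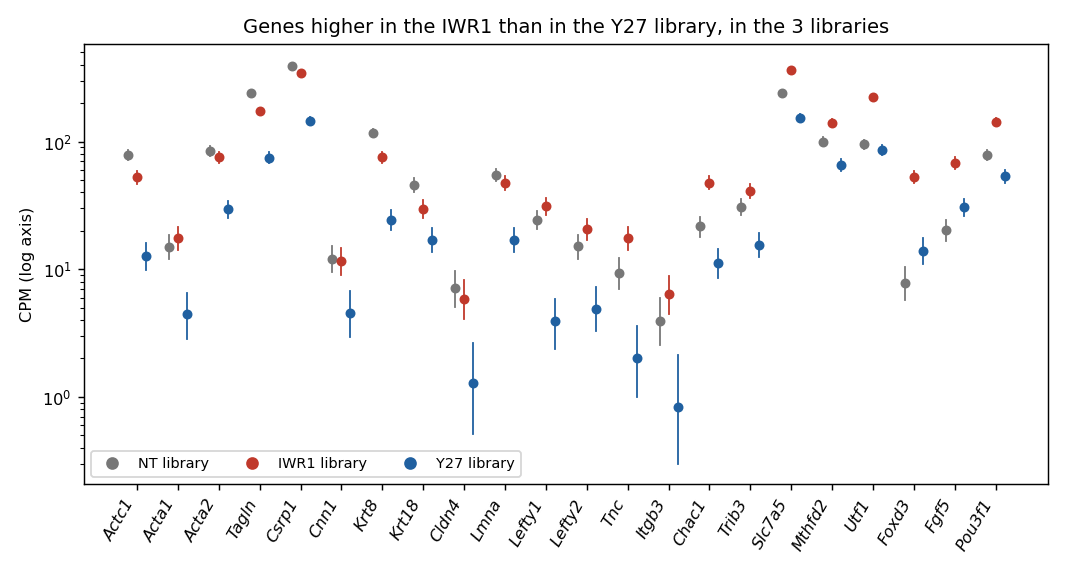
CPM on a log axis of 22 genes that were higher in IWR1 than in Y27, in the NT (grey), IWR1 (red) and Y27 (blue) libraries, 1 library each, with exact Poisson 95% intervals as bars. For the actin, keratin and lamin genes the Y27 point is the low one, and for Utf1, Foxd3, Fgf5 and Pou3f1 the IWR1 point is the high one.

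ATF4 target genes and tRNA synthetase genes leaned to the IWR1 side. Of 30 ATF4 target and unfolded protein response genes 6 were past 2-fold higher in IWR1 and none lower, with a median of 0.30. Chac1, which encodes a glutathione-degrading enzyme, was at 47.8 CPM in IWR1, 11.2 in Y27 and 21.7 in NT (4.28-fold, 3.23 to 5.75). The pseudokinase gene Trib3 was at 41, 15.6 and 30.9, and Herpud1, of the endoplasmic reticulum stress response, at 31.6, 12.1 and 26.9. The amino acid transporter genes Slc7a5 (361, 154 and 240.1) and Slc7a3 (238, 103 and 124) and the folate enzyme gene Mthfd2 (141, 65.8 and 99.9) had the same order. In these 6 genes IWR1 was the highest library and Y27 the lowest. All 12 tRNA synthetase genes were higher in IWR1, by log2 differences of 0.20 to 0.59, each with a counting interval above 1 and none past 2-fold. Nars, the asparaginyl-tRNA synthetase gene, had the largest at 356 against 235 CPM.

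Metabolic lists showed smaller shifts without any gene past 2-fold. Of 24 cholesterol synthesis genes 20 were higher in IWR1 (median 0.27), led by Msmo1 at 62.1 against 37.9 CPM, and 24 of 29 glycolysis and hypoxia genes were higher (median 0.21). The glucose transporter gene Slc2a3 was an exception, at 1044 CPM in IWR1, 1678 in Y27 and 2341 in NT. Of 77 cytosolic ribosomal protein genes 76 were higher in IWR1, by a median of only 0.12, and NT was above both libraries in 70. Proteasome (0.06), oxidative phosphorylation (0.04), DNA replication (0.04), heat shock (0.01) and p53 target (-0.02) lists lay near the median of all genes, and all of these but the proteasome list changed sign under at least 1 setting.

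Genes named Zfp leaned to the Y27 side, and the genes past 2-fold differed in length and GC content. Of 348 genes named Zfp, most of them zinc-finger transcription factors, 252 were lower in IWR1 at any size, against 54.2% of all genes, and 16 past 2-fold lower, with a median of -0.22. The median of that list was -0.12 after a correction for the trend with transcript length and GC content. The genes past 2-fold higher in Y27 had a median length of 3243 bases and a GC content of 50.3%, and those higher in IWR1 2583 bases and 53.6%, against 2888 bases and 50.9% over all genes compared. Of 8 listed long non-coding RNAs, H19 among them, 5 were lower in IWR1, a share near that of all genes (median -0.28, or -0.15 with the trend removed). Malat1 was at 627 CPM in IWR1, 876 in Y27 and 258 in NT. Only 1, Miat, was past 2-fold, higher in IWR1 (4.81 against 1.65 CPM). Miat came within 2-fold under at least 1 of the other settings tried. Of 22 mitosis genes 15 were lower in IWR1 (median -0.15, or -0.03 with the trend removed), with Mki67 at 303 and 428 CPM and the kinetochore motor gene Cenpe at 116 and 202. The Wnt target median was -1.09 with the trend removed, as without it.

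For most lists, markers of other cell types were low in both libraries. The fibroblast list summed to 175 CPM in IWR1 and 192 in Y27, mostly Mmp2 and Col1a1, and Lum was in neither table. Pdgfrb was its 1 gene past 2-fold, at 1.96 and 12.3 CPM. The endothelial and blood list summed to 16.9 and 15.4 CPM, with Tie1, Cd34, Gata1, Ptprc and Lyz2 not listed. The neuron list summed to 79.4 and 58.3 CPM, mostly Tubb3 and Map2, and the germ cell list to 39.2 and 40.7 with Dppa3, Dazl and Ddx4 not listed. The cardiac and muscle list summed to 65.4 and 22 CPM, which was mostly Actc1, and Myl7 and Nkx2-5 were not listed. The extraembryonic endoderm list had the highest sum of these, 1609.9 CPM in IWR1 and 1706 in Y27, much of it from the matrix genes Sparc (726 and 585) and Lamb1 (260.0 and 521). Of its 11 members compared, 2 were past 2-fold lower in IWR1: the receptor gene Pdgfra (1.6 against 5.86 CPM) and the adaptor gene Dab2 (14.8 against 31.3). Pdgfra came within 2-fold under 2 of 9 other settings and Dab2 under 5 of 10. Several defining genes of definitive and extraembryonic endoderm were at or near 0: Sox17, Afp, Ttr, Apoa1 and Hnf4a were not listed, and Gata6 had 6 reads in IWR1 and 17 in Y27. Of 9 definitive endoderm markers compared, 2 were past 2-fold higher in IWR1 (Cer1 and Trh) and 2 lower (Lhx1 and Eomes). Trh, the thyrotropin-releasing hormone gene, was at 18.4 CPM in IWR1, 3.11 in Y27 and 4.33 in NT. Of 8 trophoblast markers compared, Cdx2 and Eomes, which are also streak and caudal genes, were lower in IWR1 and Ascl2 and Plet1 higher. Both Ascl2 and Plet1 came within 2-fold under at least 1 of the other settings tried. Elf5, Prl3d1 and Tpbpa were not listed.

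The naming rule took the 15 largest differences in each direction among genes of at least 5 CPM and 30 counts. On the Y27 side these included, beside genes above, Limch1, an actin-associated protein gene (3.74 CPM in IWR1, 37.6 in Y27 and 19.1 in NT), Ccno, a cyclin-family gene (11.6, 89.8 and 68.7), and the sodium channel gene Scn9a (1.69, 25.6 and 7.19). Fam177a and Pla2g4b had no count in IWR1 and 11.8 and 7.65 CPM in Y27. The counts of Scn9a, Fam177a and Pla2g4b are not whole, so how their reads were assigned is uncertain. On the IWR1 side were also the neurosecretory protein gene Vgf (40.8 CPM in IWR1, 9.89 in Y27 and 26.2 in NT), the fatty acid transporter gene Slc27a2 (12.3, 2.38 and 2.08), the potassium channel gene Kcnj12 (7.27, 0.584 and 1.17) and Shisa3 (23.6, 5.68 and 5.37), the last pair from counts that are not whole. Just inside the threshold on the IWR1 side lay Cyp2b23, Boc and Fhl2 (all 1.01) and just outside it Them4, Cdk5r2 and Tmem119 (all 0.99). On the Y27 side Abcd2 and Tbc1d8b (both -1.01) lay just inside and Lamb1 and Il17d (both -1.0 when rounded) just outside.

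The NT level gives the position of the NT library beside the treated libraries. Whether a position reflects the missing inhibitors or another difference of the NT library was not tested. Of the 403 genes higher in Y27, NT was nearer to Y27 in 238 and nearer to IWR1 in 165, and it lay between the treated levels in 298. Of the 168 genes higher in IWR1, NT was nearer to IWR1 in 86 and nearer to Y27 in 82, and it lay between in 119. Over all 13010 genes NT was nearer to IWR1 in 7565 and nearer to Y27 in 5445. It lay between the treated levels in only 3409 of them, above both in 4331 and below both in 5270. Of the 348 genes named Zfp, NT was below both in 235 and above both in 46. Of the 22 mitosis genes it was below both in 15 and above both in 4. The lists fell on different sides. In the Wnt target list all 10 genes past 2-fold lower in IWR1 had NT nearer to Y27, as did 10 of 12 streak genes and all 5 Hox genes. In the actin and SRF list all 8 genes had NT nearer to IWR1. The primed epiblast genes higher in IWR1 past 2-fold had NT nearer to Y27 in 3 of 3, and the ATF4 genes had NT nearer to IWR1 in 4 of 6. Both comparisons with NT share that library, so these counts describe positions and are no independent evidence.

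**Figure D5:**
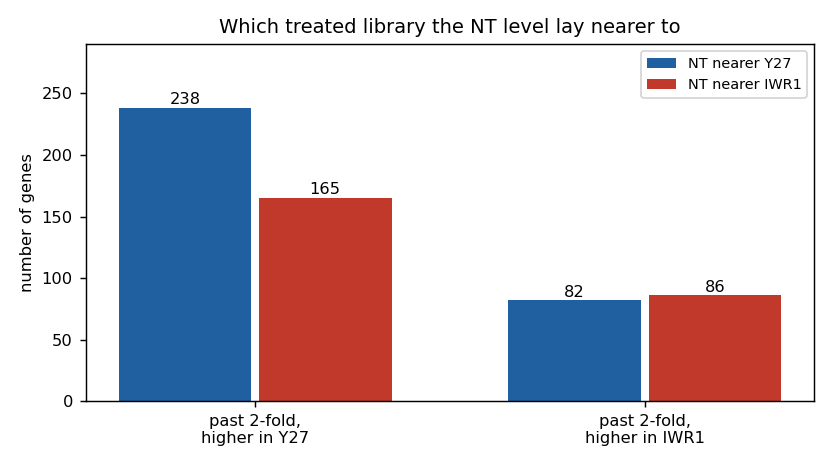
Number of genes past 2-fold between the treated libraries, split by the treated library to which the NT level lay nearer on the log2 scale. Blue bars count genes with NT nearer to Y27 (238 and 82) and red bars genes with NT nearer to IWR1 (165 and 86).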

How the data were processed

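Per the labels, 1 library per group was prepared from total RNA of mouse EpiSCs by Illumina's standard method. Per the submitters' processing notes, Bowtie 0.12.2 and the mm8 build were used. How the counts were estimated was not given in the sources used here. Per the file headers, each table gives an expected count, a transcript length and an FPKM value per Entrez gene. The expected counts deposited by the authors are not normalized, and 80.1% of the IWR1 and 79.6% of the Y27 values are exactly whole as written in the files, with no tolerance. The FPKM values deposited by the authors follow from those counts, as 94.1% and 94.0% of genes over 50 counts came within 2% when recomputed. The tables listed 15720 genes for IWR1 and 15867 for Y27, none of them at 0, and genes missing from a table were set to 0. Symbols matched 17160 of the 17209 identifiers (99.7%).

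Counts were scaled to the library total (CPM) and compared with a pseudocount of 1 CPM for genes that averaged 1 CPM or more in IWR1 and Y27. Counts were rounded for the exact conditional binomial 95% intervals. Reads carry no molecular identifiers, so intervals and floors cover counting error only. With 1 library per group no p-value was computed. The steps were tested on simulated data. Lengths are the deposited ones, and GC content and promoters came from GRCm38 annotation.

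Members, gene lists and the rule for named genes were chosen with earlier results of these data known. Named were the 15 largest differences each way with at least 5 CPM and 30 counts (unnamed gene models were counted only), up to 6 members of each list with the largest difference and its highest member, the genes next to the threshold, and a fixed set of pathway, pluripotency and cytoskeletal genes. Nodal, Gsc, Id1, Id3, Tagln2 and the Smad genes were added after their values were seen. Promoters were those of the 2 members with the motif and the 1 without it that differed most in the direction of the list. Other settings were pseudocounts, level filters, thresholds, TMM factors (edgeR 4.0.16), DESeq2 1.42.0 size factors, upper quartile, whole counts only, removal of a length and GC trend, and FPKM. Other computations used Python 3.11.15 with pandas 2.3.3, scipy 1.17.1 and matplotlib 3.10.9, and R 4.3.3. Some genes that the naming rule would take are not reported here.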

Additional observations from a re-analysis of the deposited data

How the results depend on the processing

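The number of genes past 2-fold depended on how low genes were treated and on the threshold. It was 168 higher and 403 lower in IWR1, and became 297 and 647 with a pseudocount of 0.1 CPM, 48 and 156 with 5 CPM, 84 and 237 among genes averaging 5 CPM or more, and 88 and 260 with the deposited FPKM. At 1.5-fold it was 600 and 1185, and at 3-fold 36 and 119. Scaling moved it little, to 179 and 378 with TMM factors, and shifted the median of all genes by at most 0.04. The Wnt target median moved from -1.09 to -1.52 among genes averaging 5 CPM or more. The streak and the actin and SRF medians stayed between -1.22 and -0.87 and between 0.22 and 0.31. Of 63 list medians, 21 changed sign under at least 1 setting, most of them near 0. Of 124 named genes past 2-fold, none changed sign and 50 came within 2-fold under at least 1 setting. No paired analysis was possible because each group has 1 library, and for the same reason no library could be left out. The depth limits genes of a few reads, whose intervals are wide.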

Other observations

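The following genes, apart from Peg3, were past 2-fold but outside the rule for named genes, and were chosen after their values were seen. Ptgs2 and Ptgs1, which encode the cyclooxygenases, were at 1.6 and 4.81 CPM in IWR1, 15.9 and 26.2 in Y27 and 13.4 and 17.9 in NT. The lipoxygenase gene Alox15 was at 5.53, 25.5 and 16.8 (4.61-fold higher in Y27 than in IWR1, 3.1 to 7.04). For these genes NT lay nearer to Y27. The apelin receptor gene Aplnr, which nascent mesoderm expresses, was at 4.64 CPM in IWR1, 32.2 in Y27 and 27 in NT, and its ligand gene Apln at 102, 284 and 379.5. Ligand and receptor were thus both low in IWR1. Cited2, which encodes a transcriptional coregulator, was at 63.3, 217 and 198 CPM, Grsf1, which encodes an RNA-binding protein, at 110.2, 511 and 417, and Frzb, which encodes a secreted Wnt antagonist, at 5.71, 23.3 and 12.5. Kitl, the ligand gene of the Kit receptor, and the imprinted gene Peg3 had another order. Kitl was at 3.21 CPM in IWR1, 7.63 in NT and 20.5 in Y27, and Peg3 at 241, 376 and 748, so that Y27 was the high library.

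On the IWR1 side, the urokinase receptor gene Plaur was at 10.5 CPM in IWR1, 4.21 in Y27 and 10.7 in NT. Pdgfb, a growth factor gene, was at 44.8, 15.9 and 40.7, Bhlhe40, a transcriptional repressor gene, at 59.6, 18.1 and 56, and Phlda1 at 38.9, 12.5 and 37.8. In these 4 genes IWR1 and NT were close and Y27 was the low library. Y27 was also the low library for the actin and SRF genes past 2-fold. In 28 of the 34 genes of that list, however, NT was above both treated libraries. Enpp3, which encodes an ectonucleotidase, and Pcdh1, a protocadherin gene, were instead high in IWR1 alone, at 195 and 106 CPM against 67.6 and 38.6 in Y27 and 45.9 and 44.7 in NT.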
